A study of Mus musculus with 6 samples.

Results

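The peptides of the amylin, calcitonin and adrenomedullin family and their receptors were followed on gene arrays of primary mouse calvarial osteoblasts. The set holds 10 genes of the 20659 genes named on the array. They are the ligand genes Iapp, Calca, Calcb, Adm and Adm2, the receptor genes Calcr and Calcrl, and the receptor activity modifying protein genes Ramp1, Ramp2 and Ramp3, and form a known family. The family was selected on the signal of Iapp, which was high after differentiation and low with cabozantinib on these same arrays, so the values of Iapp are a description without a test. The 10 genes were read through 13 probes, matched by the RefSeq transcript named for each probe.

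The osteoblasts came from the skull vaults of CD1 mice aged 2 to 5 days. Cells grown to confluence in basal medium were the undifferentiated osteoblasts (2 arrays). Confluent cells kept for 30 days in differentiation medium were the differentiated osteoblasts (2 arrays), and cells kept for 30 days in that medium with cabozantinib (XL184), an inhibitor of the tyrosine kinases MET and VEGFR2, were the cabozantinib-treated osteoblasts (2 arrays). Cyanine 3 labeled cRNA was hybridized to 1-color Agilent 4x44K arrays. Neither the labels nor the methods say whether the 2 RNAs of a group came from separate cell preparations, so every p value measures only the spread between these arrays, which may be technical.

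The peptides of this family are short hormones that signal through class B receptors coupled to cAMP. The receptor genes encode the calcitonin receptor (Calcr) and the calcitonin receptor-like receptor (Calcrl), and the RAMP proteins decide which ligand each receptor prefers. Amylin, the product of Iapp, is best known as a hormone of pancreatic beta cells, calcitonin as an inhibitor of osteoclasts, and adrenomedullin as a vascular peptide.

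The 75th percentile of the signal was between 678 and 1975 arbitrary units, and between 57.8% and 72.1% of the probes were well above background by the call of the scanner software. Both cabozantinib arrays had the lowest share, 57.8% each, beside 60.3% to 72.1% without cabozantinib. Fewer probes thus passed this call with cabozantinib across the whole array. The part of this in the loss of dim genes such as Adm2 and Calcrl with cabozantinib was not tested. The 4 arrays without cabozantinib were read in 1 scan and the 2 cabozantinib arrays in another, so scan and cabozantinib cannot be told apart, while differentiated and undifferentiated arrays shared a scan. Values are log2 signals relative to the 75th percentile of the array, and differences are log2 differences of group means. Over the 23082 genes and unnamed transcripts tested the median difference was -0.30 for cabozantinib-treated against differentiated osteoblasts (-0.08 after quantile normalization) and 0.10 for differentiated against undifferentiated osteoblasts. Of the 9 osteoblast markers with a named probe, between 7 and 9 were well above background on each array. With differentiation 4 of them rose (Bglap2, which is osteocalcin, by 5.05, Phex by 6.37, Dmp1 by 3.98 and Ibsp by 2.19) and Spp1 fell by 3.68, against 5.06% of all genes called higher and 4.38% called lower. Runx2 and Sp7 differed by -1.93 and -1.86 and did not pass (limma adjusted p = 0.0810 and 0.0730). Runx2 was well above background on 0 of the 2 differentiated arrays and Sp7 on 1. Alpl and Col1a1 differed by 0.48 and 0.23 and did not pass. The calls of Spp1 and Dmp1 were lost without undifferentiated replicate 2 (limma adjusted p = 0.212 and 0.0522), and that of Ibsp without either differentiated array (0.0898 and 0.267). The call of Spp1 was also lost without the replicate number in the fit (0.0604) and under 4 other ways of processing (0.0812 to 0.180), that of Dmp1 after a normexp correction (0.0652) and that of Ibsp with no filter on dim probes (0.0680). Macrophage markers were also present, with 7 or 8 of 9 well above background on each array (C1qa on none) and a summed level of 20.6 to 41.1 times the 75th percentile before and 179 to 270 after differentiation, and 160 to 193 with cabozantinib. A bulk array cannot tell fewer cells of a type from less RNA per cell.

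Of the 10 genes, 8 were well above background on 2 or more arrays and were tested, and 6 were well above background on all 6 arrays (Iapp, Calca, Adm, Ramp1, Ramp2 and Ramp3). Adm2 lay well above background only without cabozantinib, and Calcrl on 1 undifferentiated and both differentiated arrays. Calcb, which encodes the second calcitonin gene-related peptide, and Calcr were not well above background on any array. The calcitonin receptor is a defining marker of osteoclasts. The summed level of 9 osteoclast markers, Calcr included, was 32.0 to 52.8 times the 75th percentile before and 122 to 173 after differentiation, and 109 to 131 with cabozantinib. Most of each sum came from Ctsk, which differed by 1.48 with differentiation and did not pass (limma adjusted p = 0.128). Of the 8 tested, 3 were called higher with differentiation and 0 lower, against 5.06% of all genes called higher. Acp5 rose by 3.33 (limma adjusted p = 0.00572), and Mmp9 was well above background on only 2 arrays. The second of the 2 Calca probes was not well above background on any array either.

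**Figure D1:**
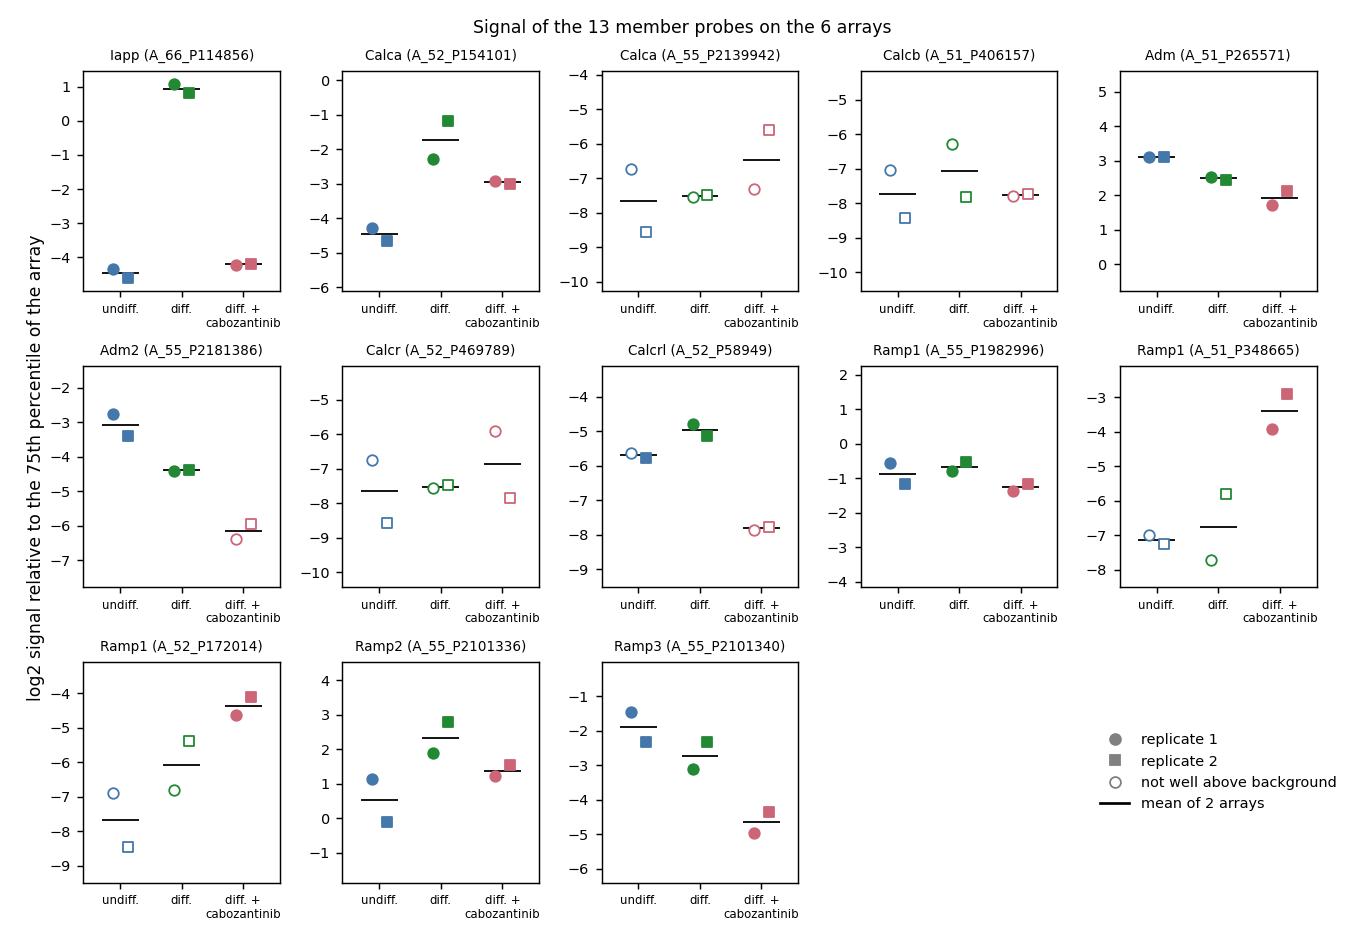
Log2 signal relative to the 75th percentile of the array (vertical axis) for the 13 probes in undifferentiated, differentiated and cabozantinib-treated osteoblasts (horizontal axis), with each array as a point, an open symbol where the probe was not well above background, and the mean of 2 arrays as a line. Each panel has its own range. The differentiated arrays of Iapp sit at 1.07 and 0.82, and its other 4 arrays between -4.60 and -4.19.

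The sequences just upstream of the start of 5 of the genes are shown because the differences described below turn on these genes. They are the 250 bases before the start of the transcript in the RefSeq annotation of GRCm38.p6, on the strand of the gene, and 8 of the 10 genes had an entry. Each was searched on both strands for the exact letters of 4 motifs: TGACG (the core of the cAMP response element), ACGTG (the core of the hypoxia response element), TGTGGT (the motif of the RUNX factors) and TATAAA (a form of the TATA box). These letters were found in 17.8%, 16.6%, 14.0% and 12.4% of the upstream windows of 32851 annotated starts. Capitals mark a match.
Iapp, chr6:142298175-142298424, plus strand: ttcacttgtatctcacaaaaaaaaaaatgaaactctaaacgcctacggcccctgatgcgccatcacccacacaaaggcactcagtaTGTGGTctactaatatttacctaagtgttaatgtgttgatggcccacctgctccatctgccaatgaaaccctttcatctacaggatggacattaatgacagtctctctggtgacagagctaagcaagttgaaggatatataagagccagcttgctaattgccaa
Calca, chr7:114636358-114636607, minus strand: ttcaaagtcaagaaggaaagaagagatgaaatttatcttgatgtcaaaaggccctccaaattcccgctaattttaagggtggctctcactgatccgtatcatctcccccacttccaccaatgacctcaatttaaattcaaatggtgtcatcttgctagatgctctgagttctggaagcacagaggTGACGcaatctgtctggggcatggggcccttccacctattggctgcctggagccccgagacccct
Adm2, chr15:89322470-89322719, plus strand: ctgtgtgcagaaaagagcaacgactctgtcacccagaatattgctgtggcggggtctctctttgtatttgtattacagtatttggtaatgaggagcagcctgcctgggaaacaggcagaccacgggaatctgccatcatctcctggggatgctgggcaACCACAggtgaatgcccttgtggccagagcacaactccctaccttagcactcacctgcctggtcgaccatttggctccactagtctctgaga
Calcrl, chr2:84425267-84425516, minus strand: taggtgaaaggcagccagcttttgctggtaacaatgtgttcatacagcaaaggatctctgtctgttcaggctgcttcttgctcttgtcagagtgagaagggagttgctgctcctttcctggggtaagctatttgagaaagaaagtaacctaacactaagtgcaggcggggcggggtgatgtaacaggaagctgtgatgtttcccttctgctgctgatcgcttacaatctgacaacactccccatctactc
Ramp3, chr11:6658283-6658532, plus strand: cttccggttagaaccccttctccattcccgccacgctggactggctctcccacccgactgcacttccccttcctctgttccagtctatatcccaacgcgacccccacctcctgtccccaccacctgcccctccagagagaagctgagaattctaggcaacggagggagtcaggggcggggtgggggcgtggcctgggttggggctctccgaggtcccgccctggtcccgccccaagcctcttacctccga
The window of Iapp held the RUNX letters once, from position -164 counted from the start, and that of Adm2 held them once on the other strand, from position -92. The window of Calca held the core of the cAMP response element once, from position -65. None of the 4 motifs was found in the windows of Calcrl and Ramp3, nor in those of Adm and Ramp1, while both windows of Calcr held the core of the cAMP response element. A match is a run of letters and not a measured binding site. Other forms of a motif, such as other spellings of the TATA box, were not searched for.

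Iapp, the amylin gene, had signals of 33.5 and 81.7 units on the undifferentiated arrays, 2543 and 1269 units after differentiation and 75.5 and 59.8 units with cabozantinib. Relative to the 75th percentile these were -4.34 and -4.60, then 1.07 and 0.82, then -4.22 and -4.19 on the log2 scale. Both differentiated arrays stood far above the other 4, which lay within a narrow range. The difference between differentiated and undifferentiated osteoblasts was 5.41, or 42.5-fold, and 71 of the 23082 genes and transcripts tested had a higher difference in that comparison. Between cabozantinib-treated and differentiated osteoblasts the difference was -5.15, or 35.4-fold. Only Car6 had a lower one, at -5.47, and is named here because of that value. The spread between arrays of a group was 0.18 both before and after differentiation and 0.02 with cabozantinib (SD, n = 2). Against undifferentiated osteoblasts the cabozantinib-treated osteoblasts differed by 0.26. The size and the sign of this last difference moved with the processing, being 0.99 after quantile normalization and -0.18 after a normexp background correction. The size of the other 2 moved too. Over all alternatives they ran from 3.81 to 5.66 with differentiation and from -5.29 to -3.99 for cabozantinib-treated against differentiated osteoblasts. On the cabozantinib arrays, where Iapp was again low, the summed macrophage and osteoclast markers given above stayed over the undifferentiated arrays, and their part in the Iapp values was not tested.

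Among named genes the patterns most like that of Iapp over the 6 arrays, by the Euclidean distance between log2 values centered on each gene's mean, were those of 2310057J18Rik (distance 1.68), Tmem92 (2.14), Nutm2 (2.30), Kcnq1 (2.40) and F13a1 (2.45), out of 23046 genes and transcripts compared. F13a1, the A subunit of coagulation factor XIII and a gene of macrophages, was well above background on all 6 arrays and measured -1.13 and -0.42, then 3.58 and 3.17, then 0.49 and 0.66. Its mean with cabozantinib lay 1.35 above that of the undifferentiated arrays. Kcnq1, a potassium channel, was well above background only on 2 of the 6 arrays, as were 2310057J18Rik and Nutm2, and Tmem92 on 4, so that most of their low values are bounds. Kcnq1, 2310057J18Rik and Nutm2 passed the filter only through the differentiated arrays, which favors a pattern like that of Iapp. The distances are a description and were not tested.

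Calca, which encodes calcitonin and the first calcitonin gene-related peptide by alternative splicing, rose with differentiation. At its brighter probe it measured -4.27 and -4.65 on the undifferentiated arrays, -2.29 and -1.19 after differentiation and -2.92 and -3.00 with cabozantinib. The 3 groups did not overlap, with differentiated osteoblasts highest and undifferentiated lowest. The rise with differentiation was 2.72 (6.59-fold, SE 0.54, limma adjusted p = 0.0127). With cabozantinib the difference from differentiated osteoblasts was -1.22 (95% interval -2.44 to -0.0022, limma adjusted p = 0.215), and from undifferentiated osteoblasts 1.50 (SE 0.54, limma adjusted p = 0.0929). The last of these passed without the replicate number in the fit (adjusted p = 0.0475). The rise with differentiation lost its call without differentiated replicate 2 (2.06, adjusted p = 0.218), without undifferentiated replicate 2 (2.28, 0.0661) and with a normexp background correction (1.54, 0.305). Calca is also a gene of sensory neurons. Of 8 neuronal markers Elavl3 and Syt1 were not well above background on any array, and the summed level was 2.20 to 4.24 times the 75th percentile before and 1.65 to 2.18 after differentiation, and 1.12 to 1.21 with cabozantinib. The part of such cells in the Calca values was not tested. The files do not state which of the peptides the 2 Calca probes report, and they name a different RefSeq transcript for each.

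Adm, the adrenomedullin gene, was brightest in undifferentiated osteoblasts. It measured 3.11 and 3.12 there, 2.54 and 2.45 in differentiated, and 1.71 and 2.13 in cabozantinib-treated osteoblasts. The 3 groups did not overlap and stepped down in that order, but no step passed the test. The differences were -0.62 (SE 0.49, limma adjusted p = 0.598) with differentiation, -0.57 (95% interval -1.67 to 0.52, limma adjusted p = 0.594) for cabozantinib-treated against differentiated, and -1.20 (limma adjusted p = 0.126) for cabozantinib-treated against undifferentiated osteoblasts. Without the replicate number the last had an adjusted p of 0.0415. Adm is a known gene of the hypoxia response. Of 10 other genes of that response, all well above background on every array, none was called with cabozantinib against differentiated osteoblasts. An unadjusted p under 0.05 was reached by 4 of them, against 23.3% of all genes, with a median of -0.96 beside -0.30 over all genes. Against undifferentiated osteoblasts 3 were called lower, against 8.73% of all genes. Without the replicate number 3 and 6 were called in these comparisons, all lower, against 11.7% and 17.6% of all genes. Their summed level was 253 to 487 times the 75th percentile before and 254 to 365 after differentiation, and 211 to 250 with cabozantinib, and their part in the Adm values was not tested.

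Adm2 encodes intermedin, a peptide that acts at the receptors formed by Calcrl. It followed the same order as Adm, at -2.75 and -3.40 on the undifferentiated arrays, -4.39 and -4.37 after differentiation and -6.39 and -5.93 with cabozantinib. The last 2 values were not well above background and give only a bound. Adm2 passed the filter only through the arrays without cabozantinib, which favors a lower value with it. Adm2 was at least 5.68-fold lower in cabozantinib-treated than in undifferentiated osteoblasts, at a measured difference of -3.08 (limma adjusted p = 0.00769). Without cabozantinib replicate 1 the measured difference went from -3.08 to -2.70 and was not called (adjusted p = 0.0861), as after a normexp correction (-1.58, 0.323) and with the authors' values (-2.25, just over the threshold). Against differentiated osteoblasts it was at least 2.30-fold lower at a measured difference of -1.78, which did not pass (limma adjusted p = 0.0803). It did pass without the replicate number (adjusted p = 0.0329). The difference with differentiation was -1.31 (SE 0.51, limma adjusted p = 0.172). The normexp correction, here and elsewhere, added an offset of 50 units to each signal, which by itself shrinks the differences of dim probes. A bound here sets the mean of the brighter group against the lowest signal called well above background on each dim array, or the probe's own signal where that was higher. The p value beside a bound, here and below, is that of the measured difference. The bound itself was not tested and holds only for the processing as reported.

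Calcrl encodes the receptor that forms the receptors of calcitonin gene-related peptide and adrenomedullin with the RAMP proteins. It measured -5.62 and -5.76 on the undifferentiated arrays, -4.77 and -5.14 after differentiation and -7.85 and -7.77 with cabozantinib. Both cabozantinib arrays and 1 undifferentiated array were not well above background, and the groups did not overlap. Calcrl passed the filter only through arrays without cabozantinib, which favors a lower value with it. With differentiation the difference was 0.74 (95% interval -0.35 to 1.83, limma adjusted p = 0.488). Calcrl was at least 1.54-fold lower in cabozantinib-treated than in differentiated osteoblasts, with a measured difference of -2.86 that fell just short of the threshold (limma adjusted p = 0.0506, and 0.0245 without the replicate number) and that shrank to -0.82 after a normexp correction. Against undifferentiated osteoblasts the measured difference was -2.12 (SE 0.49, limma adjusted p = 0.0242), but the undifferentiated signal itself was too near background to give a fold. That call was lost after a normexp correction (-0.76, adjusted p = 0.630), after quantile normalization (-1.69, 0.0783), with the authors' values (-1.66, 0.102), with no filter on dim probes (0.0670) and without either cabozantinib array (adjusted p = 0.299 and 0.219). Calcrl is also known in endothelial cells. Of the 10 endothelial markers Tek and Tie1 were not well above background on any array, between 6 and 8 of the 10 were on each array, and their summed level was 2.70 to 4.88 times the 75th percentile before and 2.06 to 2.86 after differentiation, and 1.78 to 2.15 with cabozantinib. Of the 7 tested, Cdh5 was called higher and Eng lower with differentiation, against 5.06% and 4.38% of all genes. With cabozantinib against differentiated osteoblasts none was called (1 had an unadjusted p under 0.05, against 23.3% of all genes). Cdh5 was called lower there without the replicate number, against 11.7% of all genes. Cdh5 (VE-cadherin) measured -5.58 and -4.71, then -2.97 and -2.98, then -5.52 and -5.26, higher in differentiated osteoblasts by 2.17 (limma adjusted p = 0.0248) and with a difference of -2.41 with cabozantinib (limma adjusted p = 0.0506). The call with differentiation was lost without either differentiated array (adjusted p = 0.279 and 0.0896), after a normexp correction (0.76, 0.919), with the authors' values (0.0630) and with no filter on dim probes (0.0691). Eng (endoglin) fell by 3.09 with differentiation (limma adjusted p = 0.00585), a call lost after a normexp correction (-1.90, 0.109) and without differentiated replicate 1 (-2.64, 0.0533), and differed by 0.95 with cabozantinib from differentiated osteoblasts. The part of these cells in the Calcrl values was not tested.

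Of the RAMP genes, Ramp2 and Ramp3 were read by 1 probe each. Ramp2, whose product turns Calcrl into an adrenomedullin receptor, measured 1.15 and -0.10 on the undifferentiated arrays, 1.89 and 2.79 after differentiation and 1.22 and 1.54 with cabozantinib. The differentiated arrays were the highest, and the undifferentiated arrays were spread over more than a log2 unit. The differences were 1.81 with differentiation (SE 0.60, limma adjusted p = 0.102), -0.96 for cabozantinib-treated against differentiated (95% interval -2.31 to 0.39, limma adjusted p = 0.409) and 0.85 against undifferentiated osteoblasts (limma adjusted p = 0.371). With 1 array left out the first ran from 0.88 to 2.74, called without undifferentiated replicate 1 (limma adjusted p = 0.0210), and the second from -1.65 to -0.28.

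Ramp3 forms a further adrenomedullin receptor with Calcrl and an amylin receptor with Calcr. It measured -1.45 and -2.32 on the undifferentiated arrays, -3.12 and -2.34 after differentiation and -4.96 and -4.36 with cabozantinib, all well above background. The cabozantinib arrays were the lowest and overlapped with neither other group, while the undifferentiated and differentiated arrays nearly touched. Ramp3 fell by 2.77 in cabozantinib-treated against undifferentiated osteoblasts (6.84-fold, SE 0.56, limma adjusted p = 0.0161), a call lost after a normexp correction (-1.74, adjusted p = 0.236), with the authors' values (-2.16, 0.0925), after quantile normalization (-2.16, 0.0712) and without cabozantinib replicate 1 (-2.45, 0.142) or 2 (-3.10, 0.0508). Against differentiated osteoblasts the difference was -1.93 (3.81-fold, limma adjusted p = 0.0821, and 0.0437 without the replicate number), and with differentiation it was -0.85 (limma adjusted p = 0.496).

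Ramp1, whose product makes Calcrl a receptor for calcitonin gene-related peptide, was read by 3 probes that disagreed. The brightest (A_55_P1982996) measured -0.56 and -1.17 on the undifferentiated arrays, -0.79 and -0.54 after differentiation and -1.37 and -1.16 with cabozantinib. None of its differences passed the test, at 0.20 with differentiation (95% interval -0.93 to 1.34, limma adjusted p = 0.944) and -0.60 for cabozantinib-treated against differentiated osteoblasts (95% interval -1.73 to 0.54, limma adjusted p = 0.592).

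The other Ramp1 probes, for which the files name another RefSeq transcript, were well above background only on the cabozantinib arrays. The first of them (A_51_P348665) measured -7.00 and -7.25, then -7.70 and -5.80, then -3.90 and -2.89, and the second (A_52_P172014) -6.89 and -8.47, then -6.81 and -5.38, then -4.63 and -4.11. Both were highest with cabozantinib, without overlap, opposite to the direction of the brightest probe. They passed the filter only through those arrays, so a difference was bound to appear. With cabozantinib A_51_P348665 was at least 5.29-fold higher than in differentiated osteoblasts, at a measured difference of 3.36 (limma adjusted p = 0.0506). Against undifferentiated osteoblasts it was at least 5.53-fold higher, at a measured difference of 3.73 (limma adjusted p = 0.0066). For A_52_P172014 the bounds were 2.33-fold at a measured difference of 1.72 (limma adjusted p = 0.173) and 2.81-fold at 3.31 (limma adjusted p = 0.0181). The last was called under only 7 of 9 other ways of processing the arrays, and its measured difference was 3.01 without cabozantinib replicate 2. After a normexp correction both differences from undifferentiated osteoblasts shrank, to 0.60 and 0.47, and neither was called (adjusted p = 0.701 and 0.765). The offset of 50 units in that correction by itself shrinks the differences of probes this dim. When the 3 probes were averaged the difference of Ramp1 with cabozantinib turned to 1.49 against differentiated and 2.21 against undifferentiated osteoblasts, so no single direction can be given for Ramp1.

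**Figure D2:**
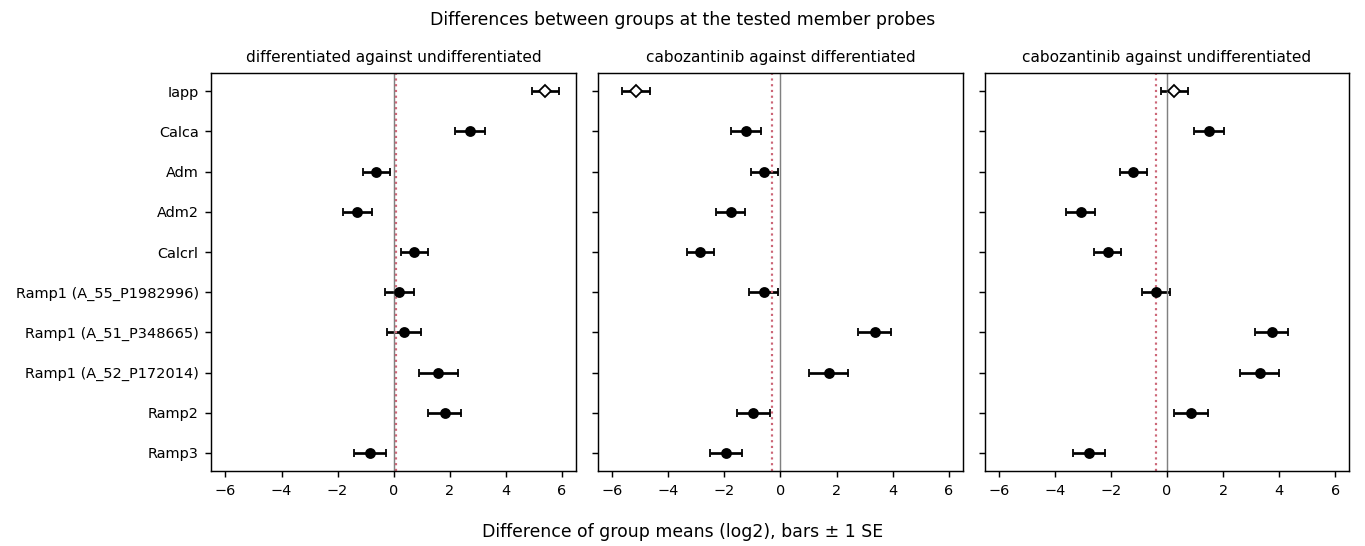
Log2 difference of group means (horizontal axis) with 1 standard error of the fit for the 10 tested probes of the 8 genes, in 3 comparisons. The open diamond is Iapp, described without a test, and the dotted line is the median of all genes tested. In the middle panel the brightest probe of every gene lies left of 0 while the other 2 Ramp1 probes lie at 3.36 and 1.72.

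Over the 7 tested genes other than Iapp, each at its brightest probe, 1 was called with differentiation (Calca), against 9.43% of all genes tested and 5.06% called higher. In cabozantinib-treated against undifferentiated osteoblasts 3 were called, all lower (Adm2, Calcrl and Ramp3), against 13.2% of all genes and 8.73% called lower. Without the replicate number 5 were called there, with Adm lower and Calca higher in addition, against 24.1% of all genes. Adm2 and Calcrl passed the filter only through arrays without cabozantinib, which favors a lower value with it. The counts that include them are therefore no support for a fall. Without overlap 4 of the 7 were lower and 2 higher in that comparison, as were 44.5% and 19.4% of all genes. In cabozantinib-treated against differentiated osteoblasts none of the 7 was called by limma at an adjusted p under 0.05 (4 had an unadjusted p under 0.05, against 23.3% of all genes), and of all 23082 genes 1 was (0.00433%). That gene is Iapp, on whose values in this comparison the family was selected, so nothing is read from its call. Many more lay close to the threshold there, with 1071 genes at an adjusted p under 0.06 and 5381 at an unadjusted p under 0.05. Without the replicate number 3 of the 7 were called (Adm2, Calcrl and Ramp3, all lower) against 12.4% of all genes and 11.7% called lower. The limit that the filter sets for Adm2 and Calcrl holds here too. All 7 had a negative difference in this comparison, as did 68.4% of all genes, and all 7 were lower without overlap between the groups, as were 45.3%. Ramp1 counts here only by its brightest probe, and its other probes were higher without overlap (3.36 and 1.72). The median of the 7 was -1.22 beside -0.30 over all genes. With differentiation 4 of the 7 were higher and 3 lower, with a median of 0.20 beside 0.10, and 3 were higher and 3 lower without overlap (25.0% and 19.5% of all genes). The comparisons share arrays, so their differences are not independent of each other.

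The genes that make and clear these peptides were described from a list of 11, of which 9 were tested. With differentiation 3 of them rose and none fell (Pcsk2, Pcsk1 and Mme), against 5.06% of all genes called higher, and the median was 0.60 beside 0.10 over all genes. Pcsk2 encodes the prohormone convertase PC2, which cuts the precursor of amylin. It measured -3.14 and -3.69 on the undifferentiated arrays, 3.91 and 4.53 after differentiation and 0.54 and 0.85 with cabozantinib. The 3 groups stood apart, with a rise of 7.63 with differentiation (SE 0.52, limma adjusted p = 0.000209) and a difference of -3.52 with cabozantinib (limma adjusted p = 0.0506, and 0.0245 without the replicate number). With cabozantinib Pcsk2 was still higher than in undifferentiated osteoblasts, by 4.11 (limma adjusted p = 0.00254), where the difference of Iapp was 0.26. Pcsk2 kept its call with differentiation under every alternative.

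Pcsk1, the prohormone convertase PC1/3, was not well above background in undifferentiated osteoblasts (-6.41 and -6.45) and measured -2.39 and -3.16 in differentiated and -4.30 and -4.79 in cabozantinib-treated osteoblasts. It was at least 7.87-fold higher with differentiation, at a measured difference of 3.66 (limma adjusted p = 0.00236). That call was lost with a normexp correction (1.28, adjusted p = 0.463). Pcsk1 passed the filter only through the differentiated and cabozantinib arrays, which favors a lower value in undifferentiated osteoblasts. Its difference with cabozantinib was -1.77 (limma adjusted p = 0.0755, and 0.0362 without the replicate number). Cpe (carboxypeptidase E, which trims the cut ends) differed by 1.42 with differentiation and -0.77 with cabozantinib, and Pam, which amidates the peptides, by -0.05 and 0.35, none of which passed with the replicate number in the fit. The difference of Cpe with differentiation passed without the replicate number (adjusted p = 0.0496) and without undifferentiated replicate 1 (1.89, 0.0279). Mme (neprilysin, a peptidase) rose by 2.10 with differentiation (limma adjusted p = 0.0285, and 0.309 or 0.111 without differentiated replicate 1 or 2), a call also lost with the authors' values (0.0603), with no filter on dim probes (0.0773) and after a normexp correction (0.0738). Its difference with cabozantinib was -1.06. In cabozantinib-treated against differentiated osteoblasts no gene of the list was called by limma (2 had an unadjusted p under 0.05, against 23.3% of all genes). Without the replicate number 2 were called lower (Pcsk1 and Pcsk2), against 11.7% of all genes.

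**Figure D3:**
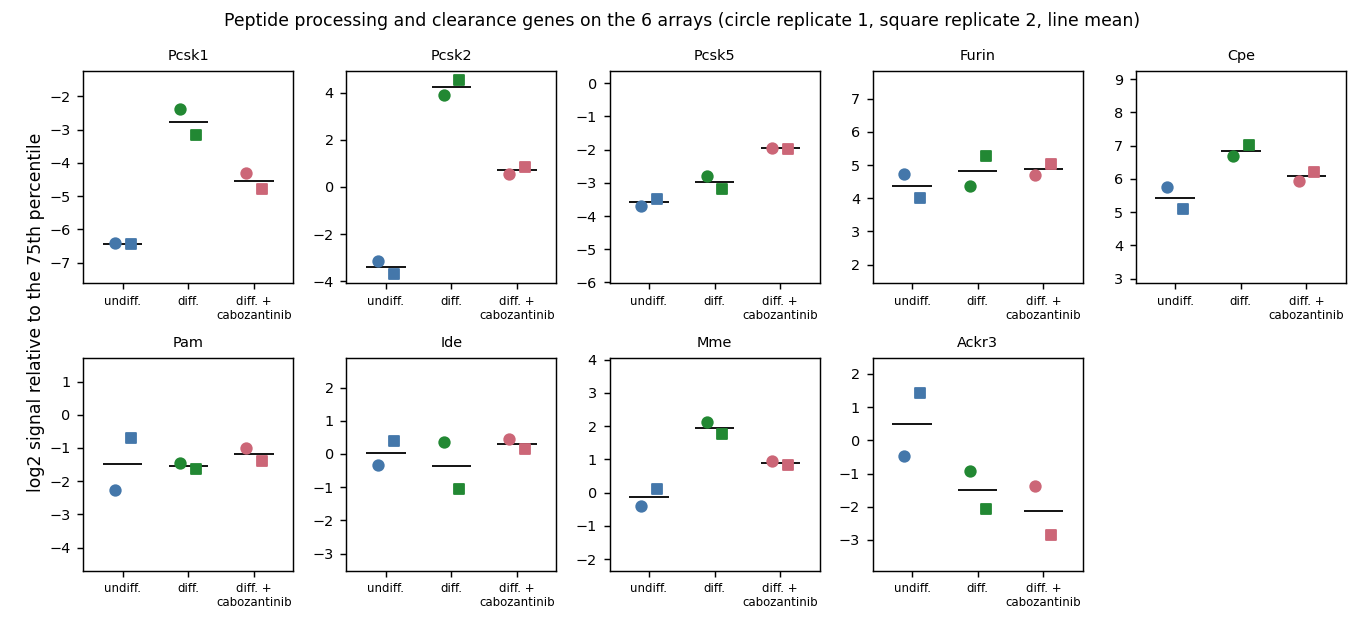
Log2 signal relative to the 75th percentile (vertical axis) of the 9 tested genes of peptide processing and clearance in the 3 groups (horizontal axis), with circles for replicate 1, squares for replicate 2 and a line for the mean of 2 arrays. Each panel has its own range. Pcsk2 sits at -3.14 and -3.69, then 3.91 and 4.53, then 0.54 and 0.85.

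Of 29 genes of receptor coupling and cAMP signaling, 26 were tested. With differentiation 3 rose, the adenylyl cyclase Adcy7 by 2.45 (limma adjusted p = 0.0125) and the arrestins Arrb1 by 2.27 (0.0198) and Arrb2 by 2.51 (0.0112), and 2 fell, against 5.06% and 4.38% of all genes. The cyclase gene Adcy2 was at least 2.03-fold lower, at a measured difference of -2.82 (limma adjusted p = 0.0305). It passed the filter through 1 undifferentiated, 1 cabozantinib and no differentiated array, which favors a lower value with differentiation. The phosphodiesterase gene Pde4b fell by 2.28 (limma adjusted p = 0.0481). Each of these 5 lost its call without at least 1 of the 2 differentiated arrays. Without differentiated replicate 1 the adjusted p was 0.137 for Adcy7, 0.110 for Arrb1 and 0.130 for Adcy2, and without replicate 2 it was 0.0531 for Adcy7, 0.165 for Arrb1, 0.124 for Arrb2 and 0.607 for Pde4b. Without undifferentiated replicate 2 it was 0.134 for Pde4b and 0.188 for Adcy2, and without replicate 1 0.0621 for Adcy2. Pde4b and Adcy2 were also not called with the authors' values (0.155 and 0.201), after quantile normalization (0.126 and 0.166), with no filter on dim probes (0.114 and 0.0759) and after a normexp correction (0.188 and 0.809), where the measured difference of Adcy2 went from -2.82 to -0.88. Arrb1 was not called with no filter (0.0574), nor Arrb2 after normexp (1.62, 0.210). With cabozantinib none of the 26 was called by limma against differentiated osteoblasts, with or without the replicate number. An unadjusted p under 0.05 was reached by 0 of them, against 23.3% of all genes, and their median was -0.01 beside -0.30. Arrb1, Arrb2 and Adcy7 are also expressed in macrophages. Of the 8 tested macrophage markers 3 rose with differentiation (Adgre1, Fcgr1 and Csf1r), against 5.06% of all genes called higher. Lyz2 differed by -1.29 and did not pass, and the part of macrophages in these values was not tested.

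Of 13 other class B receptors for peptide hormones, 10 were tested. None was called by limma with differentiation or with cabozantinib against differentiated osteoblasts. An unadjusted p under 0.05 was reached by 2 and 5 of them, against 20.1% and 23.3% of all genes. Pth1r, at -1.44 with differentiation, was called lower without the replicate number (limma adjusted p = 0.0483). Vipr1 differed by 0.26 with differentiation at its brightest probe. With its probes averaged it differed by 2.00 and was called higher (limma adjusted p = 0.0258). With cabozantinib Vipr1 differed by -1.62 (limma adjusted p = 0.0864) and Glp2r by -1.61 (0.105). Ghrhr was not well above background on the cabozantinib arrays and was at least 2.97-fold lower, at a measured difference of -2.07 (limma adjusted p = 0.0575). It passed the filter only through the other arrays, which favors a lower value with cabozantinib. The 3 genes Vipr1, Glp2r and Ghrhr were called lower without the replicate number, against 11.7% of all genes. Against undifferentiated osteoblasts Ghrhr, the receptor of growth hormone-releasing hormone, was at least 2.62-fold lower (limma adjusted p = 0.0386), a call lost after quantile normalization (adjusted p = 0.146), with the authors' values (0.172), with no filter on dim probes (0.0921), after a normexp correction (0.622) and without either cabozantinib array (0.311 and 0.372) or undifferentiated replicate 1 (0.0516).

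Islet genes were described because amylin is a beta-cell hormone. Of 10 genes, 8 were tested and none was called by limma in any of the 3 comparisons. With an unadjusted p under 0.05 there were 0 with differentiation, 3 for cabozantinib-treated against differentiated and 4 against undifferentiated osteoblasts, against 20.1%, 23.3% and 31.7% of all genes. Without the replicate number 3 of the 8 were called lower in the last comparison, against 17.6% of all genes. With differentiation their median was 0.11 beside 0.10 over all genes, and the insulin genes Ins1 and Ins2 differed by 0.13 and 0.76. With cabozantinib against differentiated osteoblasts 7 of the 8 had a negative difference, with a median of -1.09, beside 68.4% of all genes with a negative difference and their median of -0.30. Sst differed by -1.46 (limma adjusted p = 0.136) and Chga by -1.36 (0.144). Pdx1 was well above background only on the differentiated arrays and passed the filter through them, so its value is a bound. It was at least 1.33-fold lower, at a measured difference of -1.89 (limma adjusted p = 0.0837). The list's median with cabozantinib was -0.42 after quantile normalization, where that of all genes was -0.08. The glucagon gene Gcg and the pancreatic polypeptide gene Ppy were not well above background on any array.

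**Figure D4:**
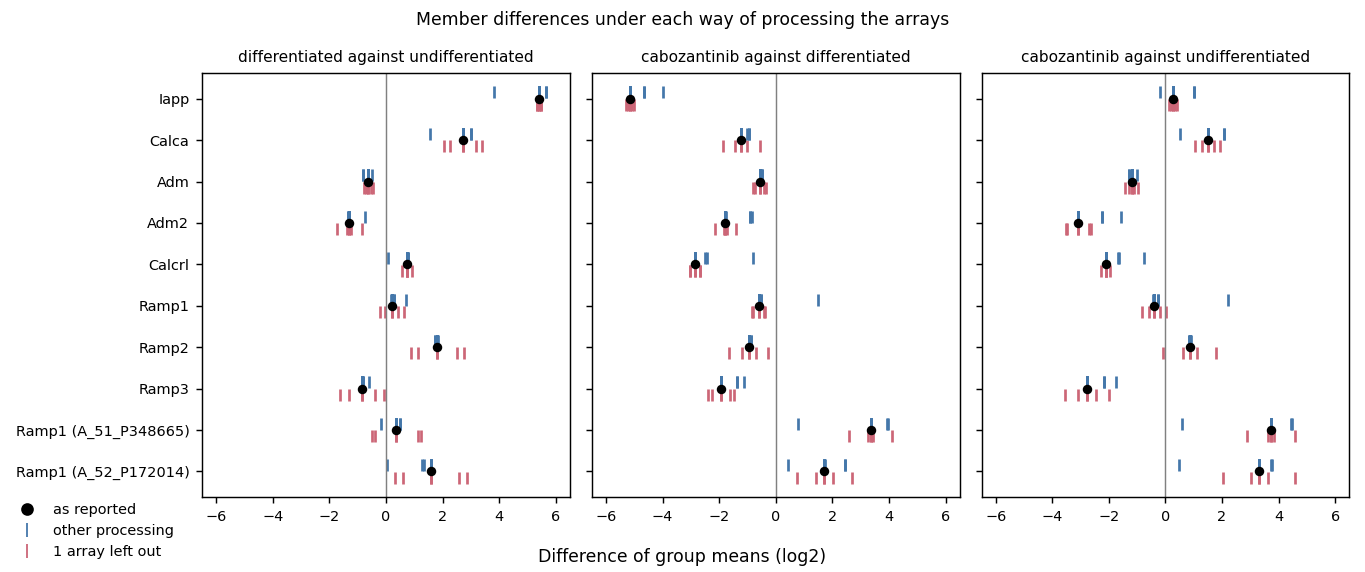
Log2 difference of group means (horizontal axis) of the 8 tested genes and the other 2 Ramp1 probes, in 3 comparisons, as reported (black points), under other processing (blue ticks) and with 1 array left out (red ticks). Ramp1 at its mean over probes moves to 1.49 and 2.21 in the panels with cabozantinib, and Iapp stays far from 0 in the first and second panels.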

How the data were processed

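RNA of 6 mouse osteoblast cultures was measured on 1-color arrays. For each array the authors deposited the scanner's spot table (Feature Extraction 11.0.1.1, from the submitters' processing notes), with a processed intensity per spot that was background-subtracted and detrended per the file headers and not scaled between arrays. They also deposited log2 values of 30439 probes, whose making is not stated and which have nearly equal distributions on the 6 arrays.

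From each log2 intensity the array's 75th percentile, taken over 43020 non-control spots, was subtracted. Control and outlier spots were left out, spots of a probe averaged, and 27232 probes kept that reached well above background on 2 or more arrays. The comparisons were fitted over all 6 arrays in limma 3.58.1 (R 4.3.3), with condition and replicate number as terms, since the methods name a paired test, with Benjamini-Hochberg adjustment over all probes. An adjusted p under 0.05 was called. The brightest probe on average stood for a gene. Probes were named through RefSeq transcripts, which named 69.1% of the 39429 probes. Python 3.11.15, pandas 2.3.3, numpy 2.4.6, scipy 1.17.1 and matplotlib 3.10.9 were used.

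Same-numbered arrays did not all deviate together. Over 27192 probes the correlation of the deviations from the group means was -0.51 between undifferentiated and differentiated, -0.53 between undifferentiated and cabozantinib-treated and 0.26 between differentiated and cabozantinib-treated arrays, so the check does not show that the numbers pair the arrays, and values from fits without them are given beside calls that they change.

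The genes and lists were chosen with earlier results of these data known. The genes named are the 10 members with all their probes, the called genes of each list or, where there were fewer than 3, its 3 largest differences, and the 5 named genes with a pattern most like that of Iapp. One gene of the peptide processing list is not reported here and is left out of that list's counts. The fit was tested on simulated data. The alternatives were other normalizations and background corrections, the authors' values, other filters on dim probes, fits without the replicate number or on only the arrays compared, a variance trend, probe means, and leaving out each array. Only 2 arrays per group limit the precision.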

Additional observations from a re-analysis of the deposited data

How the results depend on the processing

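The counts are those of the 7 tested genes other than Iapp that limma called. With differentiation 1 was called, 0 after a normexp background correction, 2 with a variance trend, and 0 to 2 with 1 array left out. For cabozantinib-treated against differentiated osteoblasts 0 were called, 1 with gene probes averaged, 1 with a variance trend, 3 on only the arrays compared, and 0 to 3 with 1 array left out. For cabozantinib-treated against undifferentiated osteoblasts 3 were called, 0 with the authors' values, 0 after normexp, 1 among probes well above background on all arrays, 1 after quantile normalization, and 0 to 4 with 1 array left out. The replicate block is part of the fit as reported, and without it the counts were 1, 3 and 5. With the undifferentiated numbers exchanged in the block they were 3, 4 and 5, and whether the numbers are crossed was not tested. Signs turned for Ramp1, which was 1.49 and 2.21 with the mean of its probes in the comparisons with cabozantinib, and with 1 array left out was -0.22 to 0.63 with differentiation and from -0.82 up to 0.028 with cabozantinib against undifferentiated osteoblasts. They also turned for its probe A_51_P348665 with differentiation (-0.18 after normexp, and -0.49 to 1.23 with 1 array left out) and for Ramp2 with cabozantinib against undifferentiated osteoblasts (-0.079 to 1.78 with 1 array left out). The cause of these changes was not tested. Of 492 differences recomputed for the tested probes, those of Iapp included, 408 kept direction and call, and 9 reversed direction. Iapp had no call to keep, and a difference that stayed uncalled counts as kept, so the count is no measure of support.

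Over all genes the calls for cabozantinib-treated against differentiated osteoblasts ranged from 0 after quantile normalization to 2867 without the replicate block and 7019 with the numbers exchanged, and from 41 to 5803 with 1 array left out. The comparison with undifferentiated osteoblasts gave 3053 (1316 after quantile normalization, 582 after normexp, 1024 with the authors' values, 5567 without the block and 670 to 8957 with 1 array left out). Differentiation gave 2177 (856 after normexp, 1354 with no filter and 1398 to 4623 with 1 array left out). The normexp correction used the median spot signal and was chosen after seeing the data, since the planned mean signal was not in the files. Also chosen then was a 75th percentile without outlier spots, which changed no count of called family genes. The normexp offset of 50 units by itself shrinks the differences of dim probes. A call lost under it is therefore weak evidence about such a probe. Dim probes (Adm2, Calcrl and the other Ramp1 probes) are limited by background.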
